A study of Mus musculus with 5 samples.

Results

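Irs2, Arid5a and a locus on chromosome 11 carry long stretches of RNA polymerase II (RNAPII) in primary mouse mammary epithelial cells, each with both subunits measured of the negative elongation factor (NELF) and with R-loop signal. Peaks of 4 lists (RNAPII, NELF-A, NELF-B and DRIP) were taken where they overlapped, by 1 bp or more, one of 3 windows in mm9. The windows ran from 69208000 to 69228000 on chromosome 11, from 10980000 to 11016000 on chromosome 8 (Irs2) and from 36364000 to 36386000 on chromosome 1 (Arid5a). They held 19 of the 32456 peaks in all: 4 of 7718 for RNAPII, 5 of 10782 for NELF-A, 4 of 3925 for NELF-B and 6 of 10031 for DRIP. The edges of these peaks lie on a grid of 250 bp, so shared ends, gaps and overhangs are known to that step only. The loci were chosen by the authors' scores, on which they rank high in all 4 lists. Their ranks, the lengths of their RNAPII domains, which go with the score, and the presence of all 4 targets are therefore a description and support nothing.

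The cells came from the thoracic and inguinal glands of virgin mice of mixed strain, 6 to 8 weeks old, with no treatment or genetic change named in the labels. RNAPII, NELF-A and NELF-B were mapped by ChIP-seq, and R-loops by DRIP-seq, which recovers digested genomic DNA with an antibody that binds RNA-DNA hybrids. A fragment is recovered whole, so the borders of a DRIP peak need not be those of the hybrid. Each target had 1 list, although the titles for RNAPII and DRIP name 2 libraries each. There is therefore no spread between replicates and no test in what follows; the sequencing depth is unknown, and the remaining sample of the series, an RNase H control of the DRIP assay, was not analysed here. The identity of the cells was not checked against marker genes, since the lists name no genes.

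NELF holds RNAPII in a paused state shortly after the start of a gene, and its release lets the polymerase run on through the gene body. R-loops form where the nascent RNA pairs back with its DNA template, often close behind a start in GC-rich sequence and also towards the ends of genes. Irs2 encodes an adaptor that couples the insulin and insulin-like growth factor receptors to phosphoinositide 3-kinase. Arid5a encodes a protein with an AT-rich interaction domain that is known to stabilise messenger RNAs of inflammation such as that of Il6. Per1, whose name came with the chromosome 11 window, encodes a repressor of the circadian clock.

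The name Per1 was not kept, because the highest-score NELF peaks lay opposite to the end that its strand gives. In RefSeq (GRCm38.p6), Irs2 lies on the minus strand, and Arid5a and Per1 lie on the plus strand. A gene on the plus strand starts at the low-coordinate end, and NELF peaks lay at the end that the strand gives for Irs2 (high) and Arid5a (low). In the chromosome 11 window the highest-score NELF-A peak and the single NELF-B peak lay at the high end, opposite to the start of a plus-strand gene. A weak NELF-A peak, with a score of 29, lay at the low end. Strand alone does not fix which gene lies in the window, so the window is called the chromosome 11 locus here. Gene positions are not given beside the peaks here, since the annotation is of another build.

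The promoters of Irs2 and Arid5a are shown because NELF, RNAPII and DRIP peaks all covered the end of the domain that the gene's strand gives. Both names came with the windows, and whether the promoter bases lie under the peaks was not tested. Each run is the 250 bases before the RefSeq start in GRCm38.p6, read 5′ to 3′ on the strand of the gene. Irs2 is at chr8:11008930-11009179 (minus strand) and Arid5a at chr1:36307483-36307732 (plus strand); these positions are not in the build of the peaks. Capitals mark runs of at least 4 G or 4 C and, in Irs2, the E-box CACGTG, the sequence that clock and MYC-type factors bind.
Irs2: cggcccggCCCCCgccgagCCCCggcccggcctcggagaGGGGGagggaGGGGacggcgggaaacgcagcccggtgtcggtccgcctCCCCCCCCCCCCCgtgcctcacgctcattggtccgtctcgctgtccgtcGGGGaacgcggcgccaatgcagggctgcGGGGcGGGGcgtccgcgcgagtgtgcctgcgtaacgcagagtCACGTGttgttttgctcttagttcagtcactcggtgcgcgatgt
Arid5a: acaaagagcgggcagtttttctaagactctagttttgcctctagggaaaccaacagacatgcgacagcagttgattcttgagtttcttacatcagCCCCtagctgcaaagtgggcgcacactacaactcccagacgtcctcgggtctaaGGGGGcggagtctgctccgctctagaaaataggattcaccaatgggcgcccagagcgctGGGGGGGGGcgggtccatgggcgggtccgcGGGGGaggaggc

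Both promoters were rich in G and C, Irs2 more so. The GC content was 72.8% for Irs2, above 93.96% of the 32841 RefSeq promoters of the same length, and 58% for Arid5a, above 66.8%; the median promoter had 52.4%. Irs2 held 34 CpG pairs and Arid5a 13, against a median of 6. GC skew, the excess of G over C divided by their sum on the gene's strand, was 0.022 for Irs2 and 0.117 for Arid5a, with a median of 0.

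The E-box in Irs2, whose first base lies 44 bases before the start, is a sequence that 6.02% of promoters hold on either strand. It was not found in the Arid5a window. Runs of GGGG on either strand occurred in both promoters and in 83.1% of all promoters. A loose form of the CArG box of serum response factor, with any bases between its CC and GG, had 4 matches in Irs2 and 1 in Arid5a. This loose form is held by 67.1% of promoters. All of the matches in Irs2 and Arid5a have G or C between CC and GG, where the box itself has only A or T. Neither window therefore holds the box itself. The letters TGACGTCA and the shorter TGACG contained in them, TATAAA and TGACTCA were searched on both strands and are in neither window; all promoters hold them at 1.55%, 17.8%, 12.4% and 4.46%. A match of letters describes the sequence and is not a binding site.

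Irs2 had the longest RNAPII domain of the 3, with NELF and almost all R-loop signal gathered at its high-coordinate end. The RNAPII peak ran over 29250 bp, from 10980751 to 11010000 on chromosome 8, with a score of 12502. The score is the authors' own whole number per peak, which has no stated unit and was compared within a list only. This peak ranked 27 of 7718 by score and 10 by width. Among the 419 RNAPII domains of 5 kb or more, made by joining touching peaks, it was the 14th longest, and the median domain measured 7750 bp. Score and width rose together in the RNAPII list (Spearman's rho 0.977), so length is tied to the score by which the loci were chosen. A second RNAPII peak of 750 bp with a score of 169, from 10979751 to 10980500, lay 250 bp beyond the far end and crossed the edge of the window.

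NELF at Irs2 formed 1 peak per subunit. The NELF-A peak, from 11006751 to 11010000, ended in the same 250 bp step as the RNAPII domain and had a score of 200, rank 29 of 10782. The NELF-B peak, from 11008501 to 11010250, was shorter (1750 bp against 3250 bp), reached 250 bp past the RNAPII domain and had a score of 46, rank 46 of 3925. NELF-A overlapped 85.7% of it. The NELF-B peak was centred 625 bp from the end of the domain and the NELF-A peak 1625 bp from it. The NELF-A peak reached farther into the domain, to 3250 bp against 1500 bp for NELF-B. NELF-B peaks were also shorter over the whole lists, with a median width of 750 bp against 1000 bp for NELF-A. No NELF peak was listed in the rest of the domain.

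R-loop signal at Irs2 straddled the NELF end. The main DRIP peak, from 11004001 to 11015000, had a score of 2020, rank 20 of 10031, and contained the whole NELF-A peak. Of its 11000 bp, 6000 bp lay inside the RNAPII domain and 5000 bp, or 45.5%, lay outside it, beyond the NELF end, where no RNAPII peak was listed. A second DRIP peak of 500 bp, from 10996751 to 10997250, had a score of 39, near the lowest in the list, 38. The 16000 bp farthest from NELF, 54.7% of the domain, held no DRIP peak.

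Arid5a combined the shortest top NELF peaks of the 3 loci with the longest DRIP peak. RNAPII, NELF-A, NELF-B and DRIP all began in the same 250 bp step, at 36364251 on chromosome 1. The RNAPII peak ran 21000 bp to 36385250 with a score of 9871, rank 56, and was the 37th longest of the 419 domains. The first NELF-A peak covered 1500 bp with a score of 190 (rank 32), and the first NELF-B peak covered 1000 bp with a score of 42 (rank 59). Per 250 bp these were the densest NELF peaks of the 3 loci within their lists, with 31.7 for NELF-A, rank 22, and 10.5 for NELF-B, rank 48.

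A second, weaker pair of NELF peaks followed at Arid5a. For NELF-A it ran from 36366001 to 36367000 with a score of 30, rank 4185, after a gap of 250 bp. For NELF-B it ran from 36366251 to 36366750, within the NELF-A peak, with a score of 8, rank 2329, where the lowest NELF-B score was 7. At this locus alone of the 3, both subunits were listed as 2 peaks each. NELF-A covered 11.9% of the RNAPII domain and NELF-B 7.14%.

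DRIP at Arid5a ran from the NELF end deep into the domain. The main peak covered 16250 bp, from 36364251 to 36380500, with a score of 3845, and ranked 8 by score and 7 by width of 10031. A 500 bp peak with the lowest score of the list, 38, followed after 250 bp. Together they covered 79.8% of the RNAPII domain, and the last 4000 bp were free of DRIP peaks. In contrast to Irs2, no DRIP peak reached past the NELF end.

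The chromosome 11 locus was covered by DRIP almost from end to end and was the one locus with NELF-A at both ends. RNAPII ran 17250 bp, from 69208751 to 69226000, with a score of 11179, rank 43, and the domain was the 68th longest of 419. The main NELF-A peak, from 69222501 to 69225500, had a score of 199 (rank 30), and the NELF-B peak, from 69222501 to 69225000, a score of 49 (rank 38). NELF-B lay wholly within NELF-A. The NELF-A peak stopped 500 bp short of the end of the RNAPII domain, and its centre lay 2000 bp from that end.

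At the other end of the chromosome 11 locus, a NELF-A peak from 69208501 to 69210000 had a score of 29, rank 4363 of 10782. It crossed the end of the RNAPII domain by 250 bp. No NELF-B peak was listed there. At Arid5a the NELF-A peak of score 30 came with a NELF-B peak of score 8, where the lowest listed was 7. NELF-B at this end of the chromosome 11 locus may thus be absent or below the threshold of the list. DRIP formed 2 peaks, of 11500 bp with a score of 1908 (rank 24) and of 6000 bp with a score of 896 (rank 104), which were 1000 bp apart. The longer peak lay over the main NELF peaks and extended 1250 bp past that end. The shorter one began in the same 250 bp step as the RNAPII domain and overlapped the weak NELF-A peak. DRIP covered 94.2% of the domain.

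**Figure D1:**
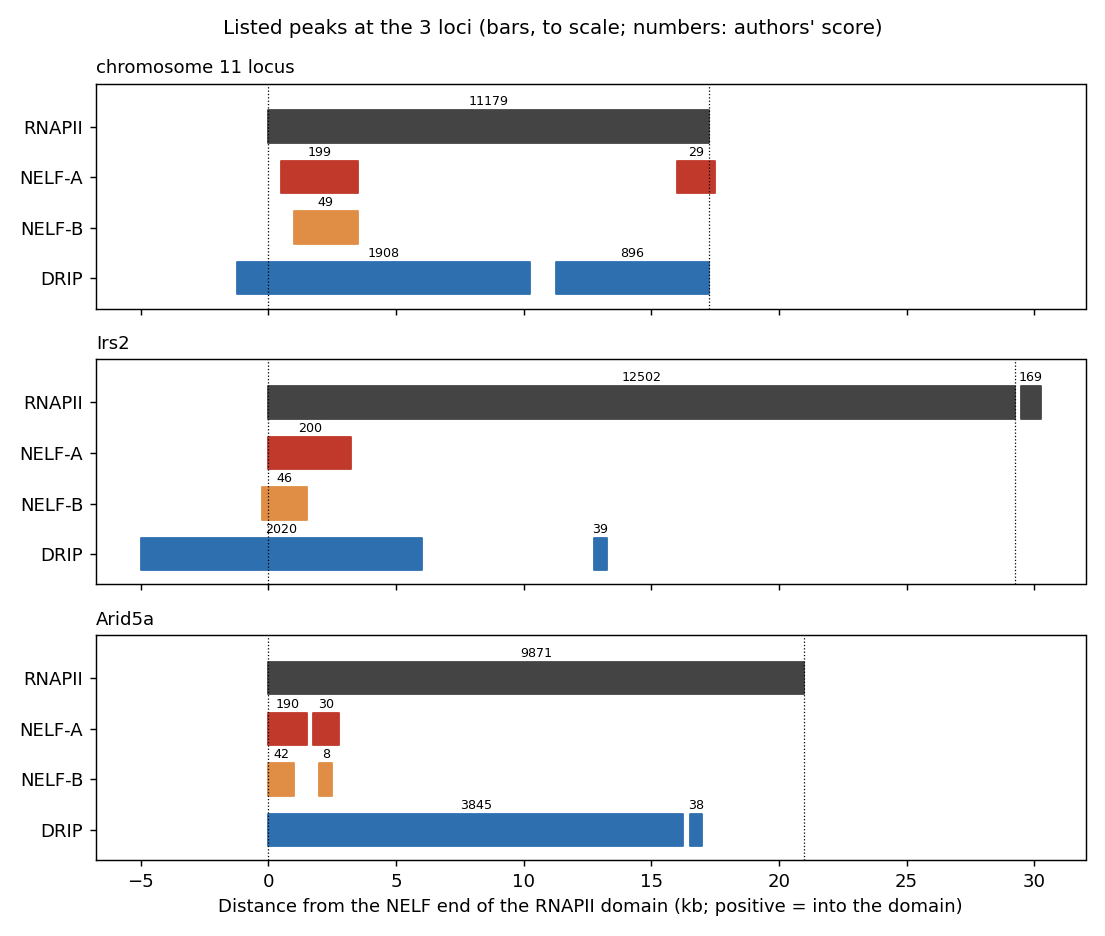
Listed peaks of the 4 targets at the 3 loci, drawn to scale; the x axis is the distance in kb from the end of the RNAPII domain nearest to the highest-score NELF-A peak, dotted lines mark both ends of the domain, and numbers are the authors' scores. The highest-score NELF peaks end within the first 3500 bp at each locus, while the main DRIP peak extends 5000 bp outside the domain at Irs2 and 16250 bp into it at Arid5a.

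By score the 3 loci all ranked high within each list, which their choice fixed. The lowest rank among the 3 was 56 of 7718 for RNAPII (0.726% of the list), 32 of 10782 for NELF-A (0.297%), 59 of 3925 for NELF-B and 24 of 10031 for DRIP (0.239%). In NELF-A the scores were 200, 199 and 190, at ranks 29, 30 and 32. In DRIP they lay farther apart, with 3845 at Arid5a, 2020 at Irs2 and 1908 at the chromosome 11 locus. The order of the loci was not the same in all lists: Irs2 led in RNAPII and NELF-A, the chromosome 11 locus in NELF-B and Arid5a in DRIP. A further 16 regions carry extra-high signal, meaning that peaks from 3 or 4 of the lists there are among the first 10 by score or the first 1% by score per 250 bp. Leaving them out placed the loci at NELF-A ranks 13 to 15 and NELF-B ranks 13 to 30. None of the loci lies in such a region.

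Ranked by score divided by width, the loci lay farther apart in the RNAPII, NELF-A and NELF-B lists than when ranked by score. Across the peaks of a list, score and width had a Spearman's rho between 0.870 (NELF-B) and 0.977 (RNAPII), as a description over peaks that are not replicates. For RNAPII the score per 250 bp was 162 at the chromosome 11 locus (rank 83), 118 at Arid5a (rank 298) and 107 at Irs2 (rank 464), so Irs2 went from first to last. For NELF-A it was 31.7 at Arid5a (rank 22), 16.6 at the chromosome 11 locus (rank 281) and 15.4 at Irs2 (rank 374). For NELF-B the chromosome 11 locus fell from rank 38 to rank 670, with 4.9 per 250 bp, while Irs2 had 6.57 (rank 244). Arid5a led in DRIP by both measures, with 59.2 per 250 bp (rank 63) against 45.9 at Irs2 (rank 157) and 41.5 at the chromosome 11 locus (rank 211).

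**Figure D2:**
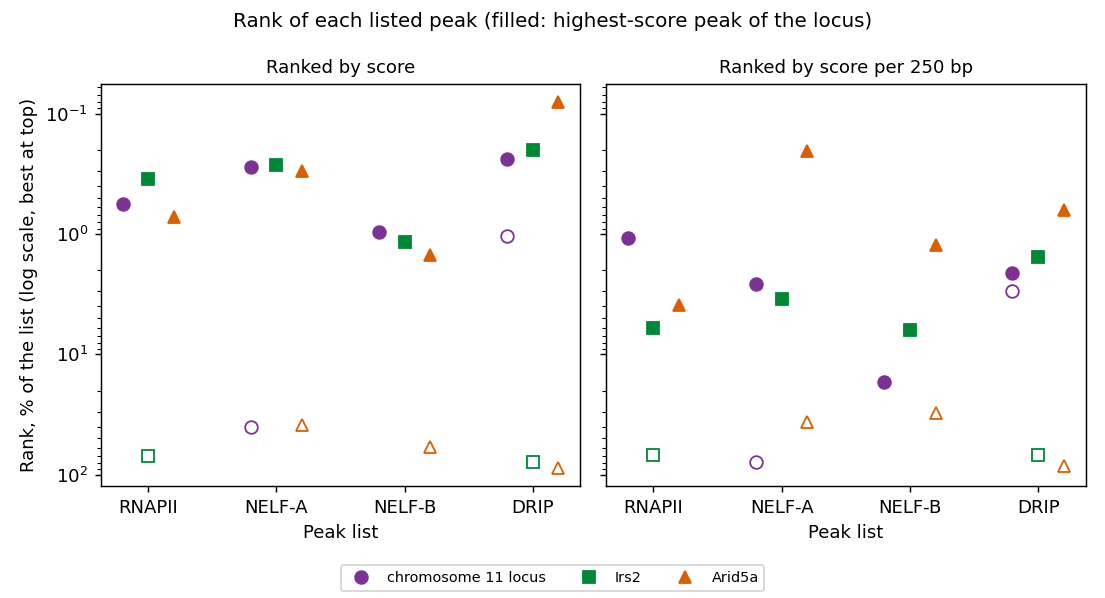
Rank of every listed peak at the 3 loci as a percent of its list (log axis, best at the top), by score on the left and by score per 250 bp on the right; filled symbols are the highest-score peak of the locus in that list and open symbols its other peaks. For RNAPII, NELF-A and NELF-B the filled symbols spread more on the right than on the left. The spread is widest for NELF-A and NELF-B, where Arid5a has ranks 22 and 48. For DRIP it is similar on both sides.

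The position of NELF near one end of the domain was shared by the 3 loci and by most long domains. The centre of the highest-score NELF-A peak lay at 11.6% of the domain length from the nearer end at the chromosome 11 locus, at 5.56% at Irs2 and at 3.57% at Arid5a. For NELF-B the values were 13.04%, 2.14% and 2.38%, always at the same end as NELF-A. All 3 loci thus had this NELF-A peak in the outer 20%, as had 64% of the 419 long domains (268, 95% Wilson interval 59.3 to 68.4%, counting error only). In that same set, 53.2% (223) overlapped NELF-A, NELF-B and DRIP, a combination that the choice of the loci fixed. The loci are longer than most of these domains, whose median length was 7750 bp. Among domains of 10 kb or more, 80% had the NELF-A peak in the outer 20% and 64% overlapped NELF-A, NELF-B and DRIP.

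For the spread of DRIP, the loci were set beside the 291 domains whose highest-score NELF-A peak was centred in the outer 25% at one end; the loci are among them. DRIP overlapped that NELF-A peak at all 3 loci and in 63.2% of these domains. DRIP covered more of the side with NELF-A, up to the midpoint of the domain, than of the far side at all 3 loci and in 65.3% of domains. Among oriented domains of 10 kb or more, both of these shares were 70.49%. It reached past the NELF end at Irs2 and the chromosome 11 locus and in 32.3% of domains. These shares are a setting for the loci and not a test, and DRIP coverage is tied to the DRIP score by which the loci were chosen.

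The amounts differed widely between the loci. DRIP covered 100% of the NELF-A side at Arid5a and the chromosome 11 locus, which 6.53% of the oriented domains (19 of 291) reached, and 44.4% at Irs2, where the median was 44%. Of the far side, DRIP covered 88.4% at the chromosome 11 locus, 59.5% at Arid5a and 0% at Irs2, with a median of 11.4%. Over the whole domain, 4 of the 291 exceeded the chromosome 11 locus, 22 exceeded Arid5a and 182 exceeded Irs2, whose coverage was 22.2%. For DRIP beyond the NELF end Irs2 moved from last to first: 3 domains exceeded its 5000 bp, 21 exceeded the 1250 bp at the chromosome 11 locus, and Arid5a had none, like the median domain.

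**Figure D3:**
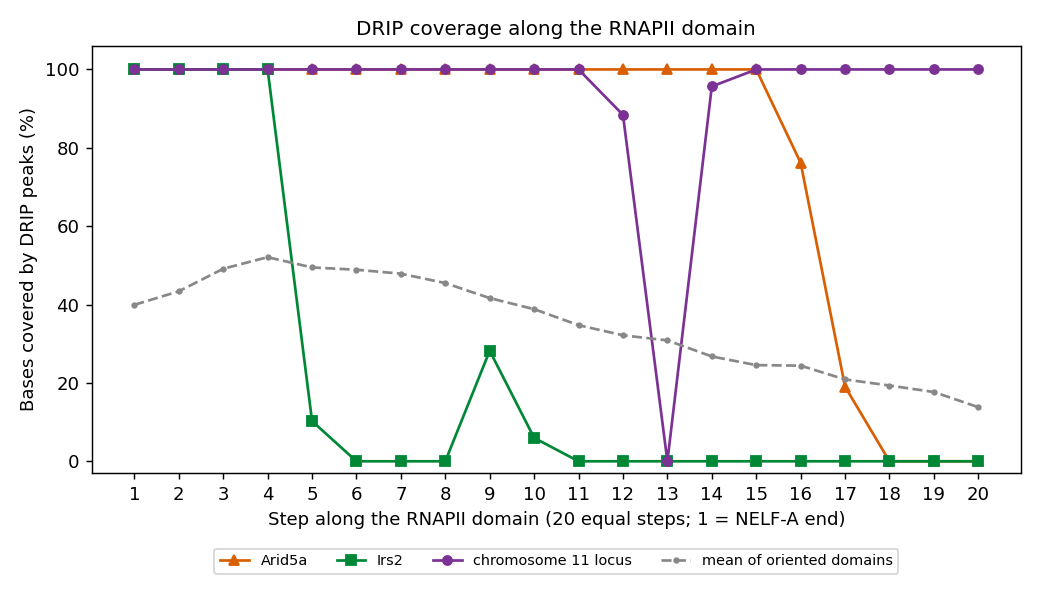
Percent of bases covered by DRIP peaks in 20 equal steps along the RNAPII domain, from the NELF-A end (step 1), at the 3 loci and as the mean over 291 oriented domains. All 3 loci are at 100% in the first 4 steps; Irs2 then falls to 10.3% in step 5, Arid5a to 0% from step 18 and the chromosome 11 locus to 0% in step 13 alone, while the mean peaks at 52.1% in step 4.

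**Figure D4:**
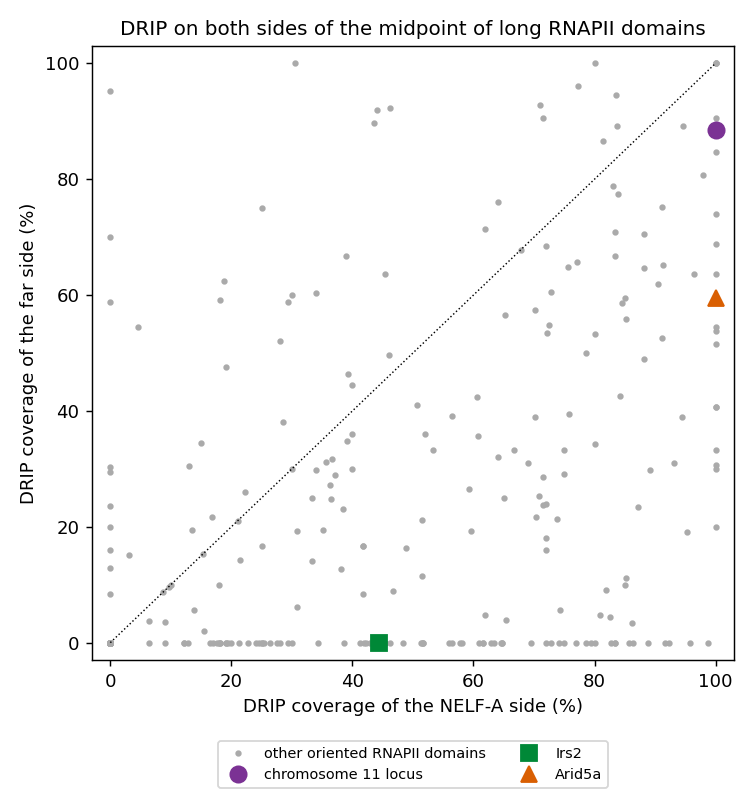
DRIP coverage of the side with NELF-A (x axis, percent of bases) and of the far side (y axis, percent of bases) in 291 oriented RNAPII domains of 5 kb or more, 1 point per domain; the dotted line marks equal coverage. The 3 loci lie below the line, at 100% and 88.4% for the chromosome 11 locus, 100% and 59.5% for Arid5a and 44.4% and 0% for Irs2.

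The surroundings of the windows also differed. Irs2 stood apart: the nearest RNAPII peaks outside its window lay 181500 bp above and 2288999 bp below. At Arid5a, an RNAPII peak of 500 bp with the lowest score of the list, 104, and a NELF-A peak of 750 bp with a score of 14 lay 3249 bp below the window, at 36360251 to 36360750 and 36360001 to 36360750. Beside the chromosome 11 locus, an RNAPII peak from 69230751 to 69234250 with a score of 2231 began 2750 bp above the window, with a NELF-A peak of score 57 and a DRIP peak of score 230 and no NELF-B peak.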

How the data were processed

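BWA and the mm9 build are named in the submitters' processing notes. Neither the caller of the peaks nor a threshold or input is given in the sources used here. The deposited score is 1 whole number per peak, with no stated unit. The authors deposited 1 list per target, and the loci and alternatives were chosen with earlier results of these data known.

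Peaks overlapping a window by 1 bp or more were members (Python 3.11.15, pandas 2.3.3). Ranks are within a list, ties taking the better rank. Touching RNAPII peaks were joined into domains; those of 5 kb or more served as background, and shares carry 95% Wilson intervals (SciPy 1.17.1). The NELF-A end of a domain is the one nearer to the centre of the NELF-A peak with the highest score. The layout code was tested on simulated domains. The named genes were the 3 of the windows. Planned lists of clock, insulin and ARID family genes and of cell markers were not run, since no annotation of mm9 was used.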

Additional observations from a re-analysis of the deposited data

How the results depend on the processing

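With 1 list per target no replicate could be left out. No paired analysis was possible because each target had 1 list and no test was made. Requiring 50% of a peak inside the window and joining touching peaks moved no rank or count they were run on by over 1.5 times. Keeping RNAPII peaks as deposited moved no share beyond its 95% counting interval and left NELF positions and DRIP coverage at the loci unchanged. Joining RNAPII peaks up to 1000 bp apart took DRIP coverage of the NELF-A side at Irs2 from 44.44% to 42.98%. With the upper 50% of DRIP peaks it was 41.03%, and the far side at Arid5a went from 59.52% to 54.76%. Orienting by NELF-B could change nothing, since NELF-B lay at the same end as NELF-A at all 3 loci. Ranked by score per 250 bp, RNAPII, NELF-A, NELF-B and DRIP stood at 83, 281, 670 and 211 at the chromosome 11 locus, at 464, 374, 244 and 157 at Irs2, and RNAPII and DRIP at 298 and 63 at Arid5a. Without 16 regions of extra-high signal, none of which holds a locus, NELF-A and NELF-B ranked 14 and 13 at the chromosome 11 locus, 13 and 18 at Irs2 and 15 and 30 at Arid5a, where DRIP ranked 5. Windows widened by 10 kb held 2 RNAPII and 4 NELF-A peaks at the chromosome 11 locus and 2 RNAPII peaks at Arid5a. Among domains of 10 kb or more, 64% overlapped all 3 other targets, 80% had NELF-A in the outer 20%, DRIP overlapped that peak in 70.49%, and DRIP filled the NELF-A side in 4.098%. Depth is unknown, so a region without a listed peak may hold signal below the authors' threshold.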

Other observations

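The nearest long RNAPII domain below the chromosome 11 window, 282 kb away at 68907751 to 68926000, also held all 4 targets, with NELF-A at the low end in place of the high end and with lower NELF scores. It covered 18250 bp with a score of 9998, rank 53, and held 4 NELF-A, 1 NELF-B and 3 DRIP peaks. Its highest-score NELF-A peak, from 68908001 to 68909500 with a score of 56, lay at the low end, the side on which a plus-strand gene starts, against a score of 199 at the chromosome 11 locus. Its NELF-B peak, from 68912001 to 68912750, had a score of 11 against 49 and lay farther into the domain than that NELF-A peak. DRIP covered 89.04% of it, with 83.6% of the NELF-A side and 94.5% of the far side, whereas at the chromosome 11 locus the NELF-A side had more (100% and 88.4%). No gene is named for this domain, since gene positions in mm9 are not given here.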
